A study of Mus musculus with 7 samples.

Results

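The 32 genes described here are germline genes known for silencing by methylation of their promoters, and they were followed in mouse fetal liver stem and progenitor cells with and without Uhrf1. The members were chosen by symbol from the 22680 genes of the deposited table, and all 32 were found in it. The list was drawn up from what is known of these genes, but earlier results of these data were known when it was chosen. RNA was sequenced from LSK cells (lineage-negative, Sca-1-positive, Kit-positive) of C57BL/6 fetal livers at 13.5 dpc, from 3 wild-type (WT) and 3 Uhrf1-/- samples of about 10000 double-sorted cells each. A further library came from WT LK cells, which lack Sca-1, of the same strain, tissue and age. No treatment or other allele is named for any group. The labels do not state how the Uhrf1-/- allele was made, in which cells it acts or whether livers were pooled. The labels speak of independent experiments but do not say what a replicate number shares, so p-values measure the spread between these samples.

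Most tissues keep many of these genes shut with CpG methylation at the promoter, laid down in the early embryo and copied at each cell division. UHRF1 binds hemimethylated CpG behind the replication fork and brings the maintenance methyltransferase DNMT1 to it. In germ cells the promoters lose methylation, and the genes act in germ-cell identity, in meiosis and in the piRNA pathway, which defends the genome against transposons. Methylation itself was not measured in these files.

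Levels are given in FPKM (sequenced fragments scaled for transcript length and library size) as deposited. Beside them stand estimated reads, the deposited scaled count divided by the value that 1 read takes in that library. Estimated read totals ran from 16808523 to 25803039 per library, and 14058 to 15075 genes had a value above 0. For Tuba3a, for example, 1 read was worth 0.0529 FPKM in Uhrf1-/- replicate 1, so a level of 0 means no read at this depth and not absence. Uhrf1 itself stood at 63.0, 66.8 and 113 FPKM in WT LSK and at 10.2, 8.78 and 18.6 FPKM in Uhrf1-/- LSK, with 116 FPKM in LK. Its log2 fold change on the log2(FPKM + 1) scale was -2.62 (SE 0.34, adjusted p = 0.018 by limma), and the genotypes did not overlap. Of the sorting markers, Kit ran from 29.0 to 56.6 FPKM in WT LSK and from 24.4 to 27.9 FPKM in Uhrf1-/- LSK, which did not overlap, and Ly6a, which encodes Sca-1, from 26.4 to 96.4 FPKM in LSK against 0.321 FPKM in LK.

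Some markers of progenitor state also differed between genotypes. Gata1, the erythroid and megakaryocyte transcription factor, was at 8.01, 9.18 and 2.09 FPKM in WT LSK, at 54.3, 55.5 and 68.3 FPKM in Uhrf1-/- and at 133 FPKM in LK (log2 fold change 3.19, SE 0.42, limma adjusted p = 0.021). Flt3, a receptor of lymphoid-primed progenitors, was at 102, 69.5 and 49.8 FPKM in WT, 29.1, 28.1 and 10.6 FPKM in Uhrf1-/- and 6.56 FPKM in LK (log2 fold change -1.73, limma adjusted p = 0.175, falling to 0.000442 once replicate numbers entered the fit as a block). Epor, the erythropoietin receptor, was at 8.89, 5.22 and 1.38 FPKM in WT, 15.3, 14.7 and 14.7 FPKM in Uhrf1-/- and 67.4 FPKM in LK (log2 fold change 1.59, limma adjusted p = 0.325, and 0.027 with the block). For Gata1, Flt3 and Epor the Uhrf1-/- libraries lay on the side of LK and did not overlap WT. Klf1 (WT mean 16.5, Uhrf1-/- mean 35.6 and LK 307 FPKM) and Cd34 (263, 151 and 94.6 FPKM) were ordered the same way without overlap, and neither was called by limma with or without the block. Other LSK, LK and erythroid markers had a Uhrf1-/- mean on the side of WT away from LK, with overlapping genotypes. In the same order these were Ly6a (39.2, 72.6 and 0.321 FPKM) and Mpo (679, 562 and 1411 FPKM). The globin genes Hba-a1 (29.8, 14.8 and 663 FPKM) and Hbb-bs (9.3, 3.6 and 232 FPKM) did so too. Of the 9 LSK and LK markers, 4 did not overlap between genotypes, with Gata1 above WT and Kit, Cd34 and Flt3 below. Over all genes, 3.1% lay above WT in this way and 4.44% below. The list summed to 1283 to 1615 FPKM in WT and 1039 to 1355 FPKM in Uhrf1-/-, a sum that joins genes of both directions. The part of this difference in the members' levels was not tested.

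Promoters of 4 members that the results turn on are shown first, with their CpG sites, whose methylation was not measured here. Each is the 250 bases before the RefSeq start (GRCm38.p6), written 5′ to 3′ in the direction of the gene, with CpG in capitals.
Tuba3a, chr6:125286082-125286331, minus strand: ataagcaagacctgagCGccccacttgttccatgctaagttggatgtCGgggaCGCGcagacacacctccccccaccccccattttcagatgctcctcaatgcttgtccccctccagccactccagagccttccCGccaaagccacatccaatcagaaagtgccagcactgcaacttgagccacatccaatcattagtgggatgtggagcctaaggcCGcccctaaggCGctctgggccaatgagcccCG
Tex19.1, chr11:121145893-121146142, plus strand: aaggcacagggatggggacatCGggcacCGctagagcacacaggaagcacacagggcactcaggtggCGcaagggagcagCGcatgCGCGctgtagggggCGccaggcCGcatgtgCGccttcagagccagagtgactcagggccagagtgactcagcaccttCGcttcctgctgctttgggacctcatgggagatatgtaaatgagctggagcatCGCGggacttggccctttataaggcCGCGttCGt
Rhox2a, chrX:37244742-37244991, plus strand: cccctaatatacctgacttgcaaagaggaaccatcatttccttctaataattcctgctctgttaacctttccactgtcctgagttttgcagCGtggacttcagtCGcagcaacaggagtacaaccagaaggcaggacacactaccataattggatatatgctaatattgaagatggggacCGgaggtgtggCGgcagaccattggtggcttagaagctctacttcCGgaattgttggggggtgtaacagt
Hormad1, chr3:95559427-95559676, plus strand: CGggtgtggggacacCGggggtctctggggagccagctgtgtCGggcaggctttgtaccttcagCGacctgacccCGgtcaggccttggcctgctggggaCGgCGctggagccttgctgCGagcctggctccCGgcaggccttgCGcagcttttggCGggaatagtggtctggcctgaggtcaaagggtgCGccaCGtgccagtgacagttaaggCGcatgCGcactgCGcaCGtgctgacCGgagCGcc

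The windows hold 8 CpG in Tuba3a, 15 in Tex19.1, 5 in Rhox2a and 19 in Hormad1, and, not printed, 14 in Tuba3b and 31 in Ddx4. RefSeq windows were matched for 28 of the 32 members, and those not matched are Piwil2, Dppa3, Rhox6 and Rhox9. The 28 windows held a median of 14 CpG (3 to 34), against 6 over the 27025 genes with a window. Some X-linked members were low, with 3 CpG in Xlr3a, 4 in Rhox5, 5 in Rhox2a and 6 in Xlr3b. A window depends on the start chosen, and GENCODE vM21 puts part of 12 of the 28 windows in the gene's own exons. That part is 206 bases in Tuba3b and 165 in Ddx4, all of it untranslated region, which is why neither is printed, and 16 bases in Rhox2a, at the end of the window shown. The whole Tuba3a window lies in an exon of the antisense gene 4930417O13Rik. RefSeq puts the start of Rhox5 at 37754608 and GENCODE at 37804842 on chromosome X (GRCm38), so that window is not printed either. The RefSeq and GENCODE starts also differ for Tex101 (24672050 and 24676675) and Xlr5a (73117702 and 73292976). All 250 bases of each of those windows lie within the gene's own transcripts, outside its exons. CpG counts and motif shares below use the RefSeq windows throughout. The Tuba3a and Tuba3b windows were identical at 173 of 282 aligned positions (61.3%), and the longest run that both hold is 33 bases, from position -142 in Tuba3a and -129 in Tuba3b, counted back from the RefSeq start.

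The sequences were searched on both strands for TCCCGC, the core of the sites of E2F proteins, and for CACGTG, the E-box. Each motif holds a CpG, and neither holds the other. TCCCGC begins at -119 in Tuba3a, -106 in Tuba3b, -33 in Tex19.1, -95 in Hormad1 and -136 in Ddx4. CACGTG lies at -57 and -20 in Hormad1 and at -29 in Ddx4. TCCCGC was found in 9 of 28 members (32.1%) against 16.9% of all windows, and CACGTG in 12 of 28 (42.9%) against 6.0%. Among the 10 members with a window that were at 0 in WT LSK and above 0 in a Uhrf1-/- library, 6 (60.0%) held TCCCGC and 3 held CACGTG. Among the 7 at 0 in all 6 LSK libraries, 0 held TCCCGC and 5 (71.4%) held CACGTG. Of the 11 above 0 in a WT LSK library, 3 (27.3%) held TCCCGC and 4 (36.4%) held CACGTG. These groups were formed from the expression values, so the shares are a description without a test, and a match to the letters is not a bound site.

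**Figure D1:**
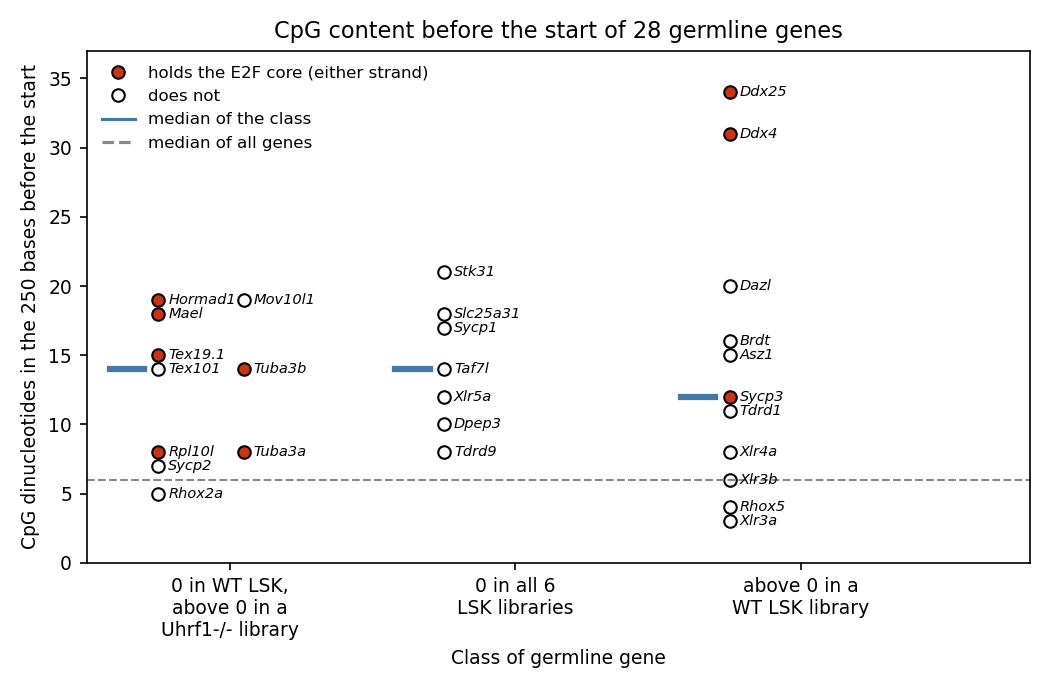
CpG count in the 250 bases before the RefSeq start (vertical axis) for the 28 members with a window, grouped by where they had signal in LSK; the short thick mark at the left of a group is its median, the dashed line is the median of all genes, 6, and a filled marker shows that the E2F core was found. Medians are 14, 14 and 12, so CpG number did not separate the members with signal in Uhrf1-/- but not WT LSK from those at 0 in every LSK library.

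The germline genes were mostly silent in WT LSK, and a subset of the silent ones had reads in Uhrf1-/- LSK, led by Tuba3b, Tuba3a and Rhox2a. Signal, any value above 0 FPKM, was present in more Uhrf1-/- than WT libraries for 12 of the 32 members (37.5%), against 5.62% of all genes. The opposite pattern was seen for 0 members, against 8.03% of all genes. In WT LSK 20 members were at 0 in every library, and 11 of those 20 (55.0%) had signal in at least 1 Uhrf1-/- library, against 9.25% of all genes at 0 in WT. Signal in all 3 Uhrf1-/- libraries and no WT library was seen for 4 members (12.5%: Tuba3a, Tuba3b, Rhox2a and Tex19.1), against 0.132% of all genes, which is 30 genes. Since the members are mostly low, the same counts were taken over genes averaging under 1 FPKM in LSK, where 11 of 26 members (42.3%) had signal in more Uhrf1-/- libraries against 10.4% of all such genes. In bulk RNA a larger share of cells with a transcript and more transcript per cell cannot be told apart.

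The number of members with signal was 10, 12 and 10 in the WT LSK libraries and 19, 16 and 19 in the Uhrf1-/- libraries, so the genotypes did not overlap. Of the 20 members at 0 in WT LSK, the Uhrf1-/- libraries showed 7, 6 and 8, at a summed 4.98, 2.97 and 4.72 FPKM or 95, 69 and 79 estimated reads. These sums are small beside the library totals, and most of them came from the Tuba3 pair. WT LK cells, with 1 library, had signal for 15 members, among them 4 of the 20 at a summed 0.342 FPKM or 14 reads. With signal defined as at least 0.1 FPKM, 10 members had it in more Uhrf1-/- libraries and 2 in more WT libraries. At 3 or more estimated reads these counts were 11 and 1. They were 11 and 2 without replicate pair 1, 13 and 0 without pair 2, and 8 and 0 without pair 3. Shares over all genes were not taken at these settings.

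**Figure D2:**
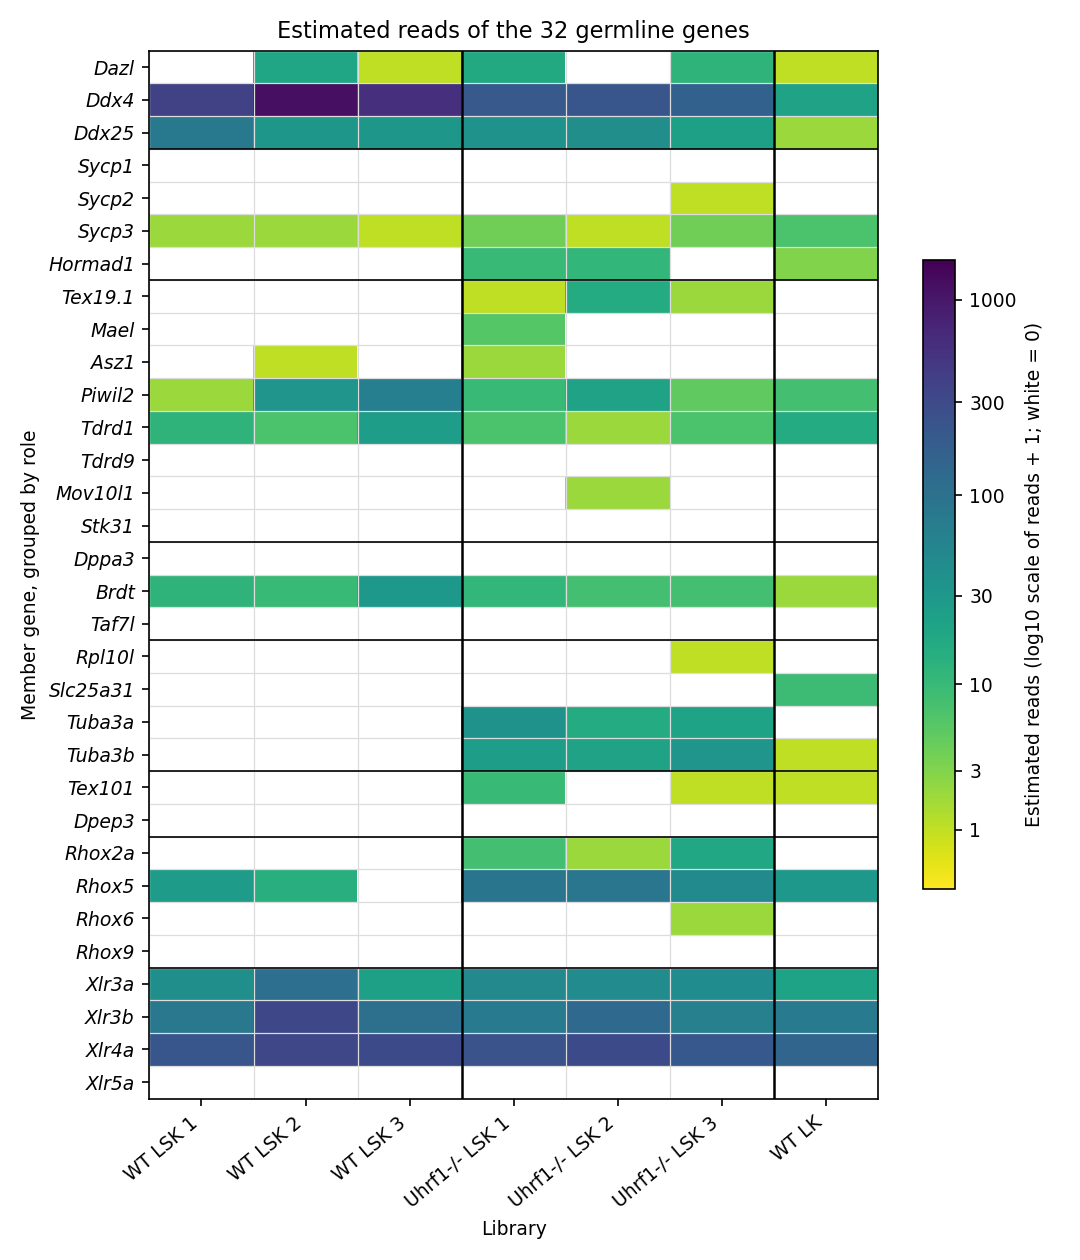
Estimated reads of each of the 32 members (rows) in each of the 7 libraries (columns), on a log colour scale with white for 0. The 4 members with signal in all 3 Uhrf1-/- and no WT LSK library stand out by blank WT columns, while the Xlr3 and Xlr4 members, Ddx4 and Ddx25 have reads throughout.

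**Figure D3:**
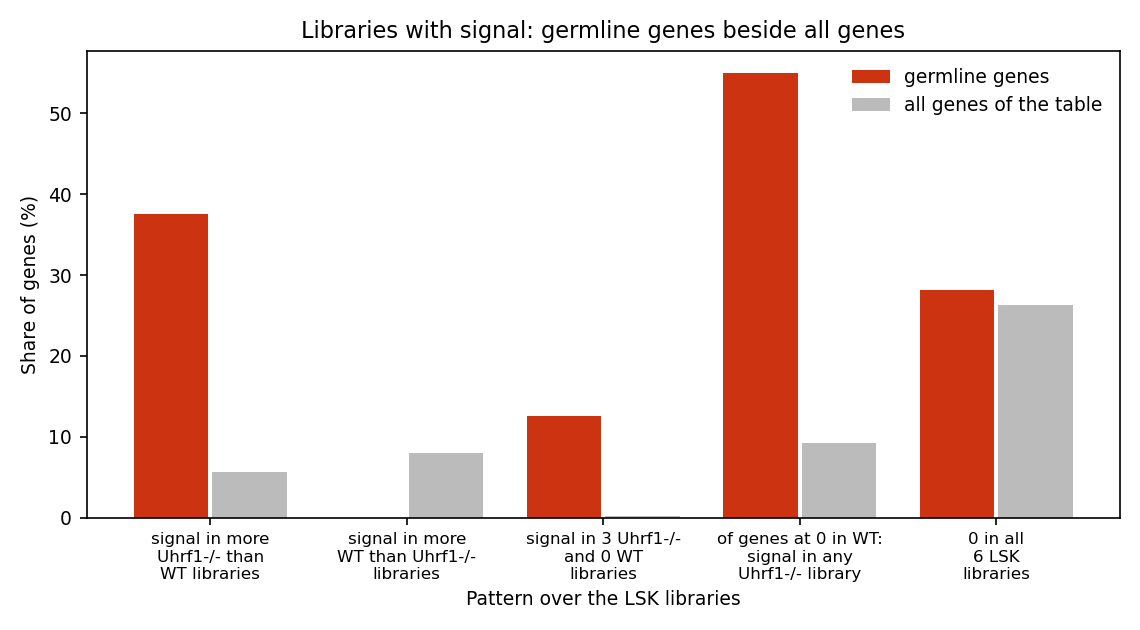
Share of genes in percent (axis) showing each pattern of signal over the LSK libraries, for the 32 members and for all 22680 genes of the table. Signal in more Uhrf1-/- libraries was seen for 37.5% of members and 5.62% of all genes.

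The Tuba3 pair gave the most reads among the members that were silent in WT. Tuba3a and Tuba3b encode alpha-tubulins made mainly in the testis. Tuba3a was at 0 in all 3 WT LSK libraries and in Uhrf1-/- at 1.85, 0.855 and 1.1 FPKM (35, 16 and 21 reads), with 0 in LK. Tuba3b was at 0 in the 3 WT LSK libraries and at 1.25, 1.11 and 1.61 FPKM in Uhrf1-/- (25, 22 and 33 reads), with 0.0379 FPKM, 1 read, in LK. Every Uhrf1-/- library lay above every WT library for both genes, and no library held over 48.6% of the Uhrf1-/- reads of Tuba3a or 41.2% of those of Tuba3b. Set against a floor of 3 reads over the WT group, signal relative to library size was 28-fold higher for Tuba3a and 31.2-fold higher for Tuba3b. That floor covers counting error of the WT reads alone, and the Uhrf1-/- reads enter as observed.

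Both genes lie on chromosome 6, where RefSeq puts Tuba3a at 125278270 to 125286081 and Tuba3b at 145615963 to 145621477 (GRCm38). Of the 50-base words of their exons, 32.4% of those of Tuba3a also occur in Tuba3b and 27.4% of those of Tuba3b in Tuba3a, so reads in those stretches cannot be assigned to either gene with certainty. Their sum does not depend on that assignment between the 2 genes, and it was 60, 38 and 54 reads in Uhrf1-/- and 0 in every WT LSK library. Among the 30 genes with signal in all 3 Uhrf1-/- and no WT LSK library, Tuba3b ranked 2 and Tuba3a 3 by mean Uhrf1-/- FPKM.

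Of the genes for meiosis and germ-cell genome defence, Tex19.1 and Hormad1 gave the most reads in Uhrf1-/- LSK among those silent in WT. Tex19.1, which restrains retrotransposons in germ cells, was at 0 in all 3 WT LSK libraries and LK and at 0.0349, 0.563 and 0.0627 FPKM in Uhrf1-/- (1, 16 and 2 reads). The genotypes did not overlap, but replicate 2 held 84.2% of the reads and the others had 1 and 2, so the level rests on that library. Hormad1, a protein of the meiotic chromosome axis, was at 0 in WT LSK and at 0.218, 0.230 and 0 FPKM in Uhrf1-/- (10, 11 and 0 reads), with 0.0747 FPKM in LK. The genotypes overlapped at 0 for Hormad1, and 22.9% of its exonic words occur in other genes. Against the same floor the difference was 7.4-fold for Tex19.1 and 8.18-fold for Hormad1.

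The remaining members with signal in Uhrf1-/- but not WT LSK had few reads. Tex101, a germ-cell surface protein, had 10, 0 and 1 reads in Uhrf1-/- (0.662, 0 and 0.0614 FPKM), 0 in WT LSK and 0.0510 FPKM in LK, with 90.9% of the reads in replicate 1. Mael, a piRNA pathway protein, had 6 reads in replicate 1 only. Mov10l1, the helicase that feeds piRNA precursors, had 2 reads, Rhox6 had 2, and Sycp2, of the synaptonemal complex, and Rpl10l, a ribosomal protein gene used in male meiosis, had 1 each, all in a single Uhrf1-/- library. At 1 or 2 reads no difference between genotypes is detectable at this depth.

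**Figure D4:**
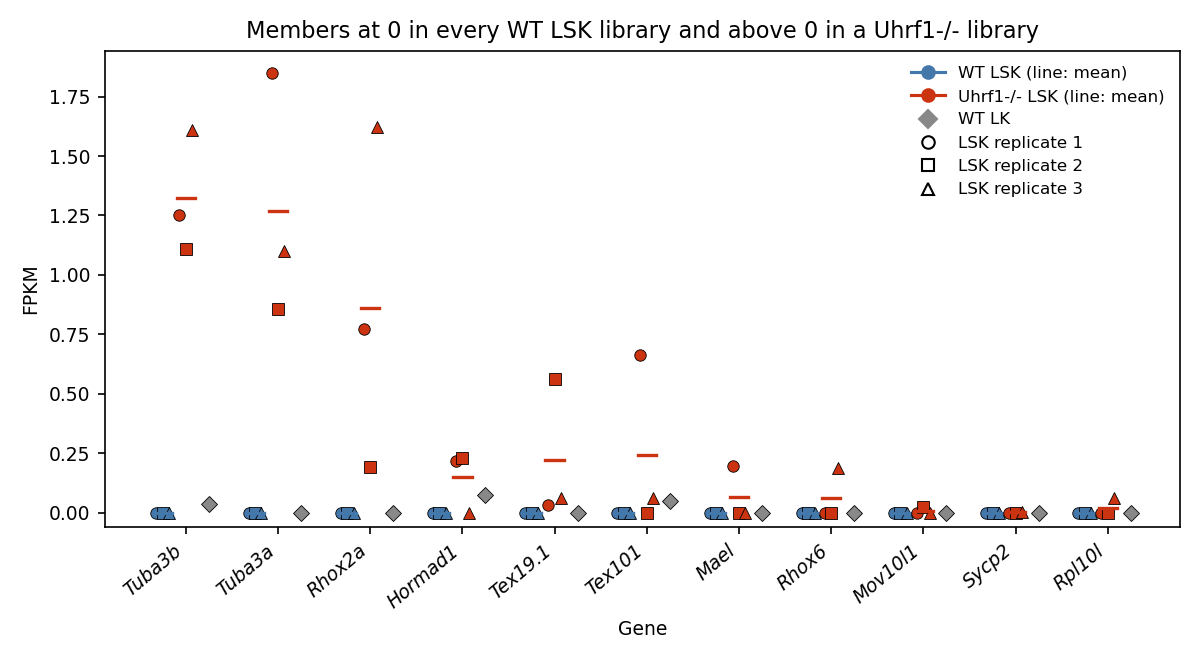
FPKM in each library (points; symbols mark the replicate, diamonds the LK library, short lines the genotype means) for the 11 members at 0 in every WT LSK library and above 0 in a Uhrf1-/- library. Tuba3a, Tuba3b, Rhox2a and Tex19.1 have 3 Uhrf1-/- points above 0, and Tex19.1 has 1 of its points far above the other two.

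Other meiosis and piRNA genes were not silent in WT LSK, or had no signal anywhere. Piwil2, a PIWI protein that binds piRNAs, stood at 0.0222, 0.254 and 0.431 FPKM in WT and 0.102, 0.224 and 0.0462 FPKM in Uhrf1-/-, and the groups overlapped. Tdrd1, a Tudor scaffold of the piRNA pathway, summed to 44 reads in WT and 16 in Uhrf1-/-, and Brdt, the testis bromodomain protein, to 52 and 27, both with overlapping ranges. Dazl, an RNA-binding regulator of germ-cell identity, had signal in 2 libraries of each genotype, and Asz1 in 1 of each. Sycp3, a synaptonemal complex gene, was at 0.0218 to 0.0739 FPKM in WT and 0.0310 to 0.129 FPKM in Uhrf1-/-, but 43.0% of its exonic words are shared with the overlapping gene Chpt1. Sycp1, Tdrd9, Stk31, Dppa3, Taf7l, Dpep3, Rhox9 and Xlr5a were at 0 in all 7 libraries. Slc25a31 was at 0 in the 6 LSK libraries. Thus 9 of 32 members (28.1%) had no signal in LSK of either genotype, against 26.3% of all genes, a share near the background.

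The X-linked Rhox cluster holds homeobox genes of the reproductive tract and placenta. Rhox2a (X, 37244992 to 37249690, RefSeq, GRCm38) was at 0 in the 3 WT LSK libraries and LK and at 0.771, 0.192 and 1.62 FPKM in Uhrf1-/- (8, 2 and 18 reads). The genotypes did not overlap, replicate 3 held 64.3% of the reads, and the difference against the floor was 10.9-fold. Since 91.1% of its exonic words occur in its copies, the copies Rhox2a to Rhox2h were also summed, which gave 11, 6 and 55 reads in Uhrf1-/- and 0 in every WT LSK library and LK. Rhox2b to Rhox2h, which are not members, made up 3, 4 and 37 of these.

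Rhox5, the founding gene of the cluster and widely used as a reporter of lost promoter methylation, was at 2.63, 0.920 and 0 FPKM in WT LSK and 8.53, 8.17 and 3.96 FPKM in Uhrf1-/-, with 2.09 FPKM in LK. Every Uhrf1-/- library lay above every WT library, and WT replicate 3, at 0, was the lowest of its group. Its log2 fold change on the log2(FPKM + 1) scale was 1.99 (SE 0.46, limma adjusted p = 0.175), which did not pass the threshold of 0.05. With the replicate number as a block it was the same size with SE 0.25 and limma adjusted p = 0.000115, a fit whose calls are the less certain ones on simulated data. The blocked call was lost without replicate pair 2 (log2 fold change 1.85, adjusted p = 0.074), with a pseudocount of 0.1 (log2 fold change 3.34, adjusted p = 0.12) and when no filter on low values was used (adjusted p = 0.258). Rhox5 shares 0 of its exonic 50-base words with other genes.

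Ddx4, the RNA helicase also called Vasa that marks germ cells, had reads in every LSK library. It stood at 5.69, 12.9 and 5.27 FPKM in WT LSK, at 2.76, 2.93 and 1.89 FPKM in Uhrf1-/- and at 0.329 FPKM in LK. Every Uhrf1-/- library lay below every WT library, LK was lower still, and WT replicate 2 was the highest. Flt3 had the same order, at 49.8 to 102 FPKM in WT, 10.6 to 29.1 FPKM in Uhrf1-/- and 6.56 FPKM in LK, and its part in the Ddx4 values was not tested. The log2 fold change was -1.26 (SE 0.34, limma adjusted p = 0.259), not past the threshold. With the block it was past it (SE 0.25, limma adjusted p = 0.00856), and this was lost without replicate pair 2 (log2 fold change -0.98, adjusted p = 0.274) and with no filter (adjusted p = 0.379). Of all members only Ddx4 had its Uhrf1-/- range below its WT range, 1 of 32 (3.12%) against 4.44% of all genes. Ranges lay the other way round for 5 of 32 (15.6%: Tuba3a, Tuba3b, Rhox2a, Tex19.1 and Rhox5), against 3.1% of all genes.

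The other members averaging 1 FPKM or more had overlapping genotypes. Ddx25, a helicase of late spermatogenesis, was at 2.96, 0.756 and 0.709 FPKM in WT and 1.19, 1.38 and 0.747 FPKM in Uhrf1-/-, a log2 fold change of -0.13 (SE 0.34, limma adjusted p = 0.971). The Xlr genes are X-linked relatives of the synaptonemal complex protein SYCP3. Xlr4a was at 8.99, 9.34 and 7.33 FPKM in WT and 8.69, 10.5 and 6.59 FPKM in Uhrf1-/- (log2 fold change -0.01, SE 0.27). Xlr3a was at 1.15, 2.16 and 0.403 FPKM in WT and 1.27, 1.13 and 0.996 FPKM in Uhrf1-/- (log2 fold change 0.01, SE 0.30). Xlr3b was at 2.40, 6.67 and 1.80 FPKM in WT and 1.98, 3.23 and 1.46 FPKM in Uhrf1-/- (log2 fold change -0.41, SE 0.38). These SEs leave room for a difference in either direction, and 77.7% of the words of Xlr4a, 44.8% of Xlr3a and 56.6% of Xlr3b occur in other genes, mostly their copies.

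**Figure D5:**
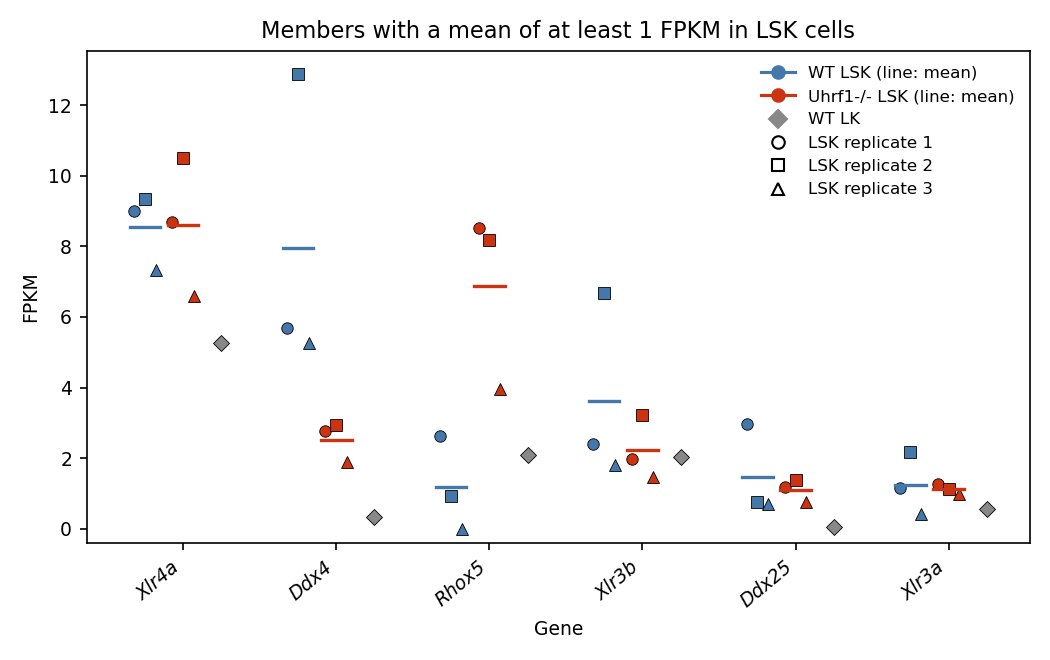
FPKM of the 6 members averaging 1 FPKM or more in the 6 LSK libraries, one point per library by genotype, with the LK library beside them. Rhox5 has every Uhrf1-/- point above its WT points, Ddx4 every one below, and the other members overlap.

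In the fit over all 10608 genes averaging 1 FPKM or more in LSK, 0 of the 6 members tested were called by limma at an adjusted p of 0.05, and 2 (Rhox5 and Ddx4) had an unadjusted p under 0.05. Over all genes 0.113% were called higher and 0.0566% lower, and 5.57% had an unadjusted p under 0.05. With the block 1 member was called higher and 1 lower, against 1.23% and 0.83% of all genes. The members' median log2 fold change was -0.07 and that of all tested genes -0.032. Most members lie under that filter, so it was also lowered. At an average of 0.1 FPKM or more 12 members were tested, and Tuba3b was called higher (log2 fold change 1.21, SE 0.17, limma adjusted p = 0.029), against 0.133% of all genes called higher, 0.0519% called lower and 5.96% with an unadjusted p under 0.05. Tuba3a had 1.16 (SE 0.19, limma adjusted p = 0.059) and Rhox2a 0.82 (SE 0.25, limma adjusted p = 0.416). Such a filter passes a gene silent in WT only through its Uhrf1-/- level, so the count over the 12 is no support in itself. With no filter 0 of 23 members and 0 of 16724 genes were called, 5 and 967 (5.78% of all) had an unadjusted p under 0.05, and Uhrf1 itself was at limma adjusted p = 0.129. On the deposited scaled counts with no filter, limma called Tuba3a (adjusted p = 0.049) and Tuba3b (adjusted p = 0.039) higher, against 0.0658% of all genes higher and 0.0419% lower. With the block on the same values Rhox5, Tuba3a and Tuba3b were called higher and Ddx4 lower, against 0.514% and 0.359% of all genes.

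Related genes outside the list were counted by the same means. Of 49 other germline genes, 18 were at 0 in WT LSK and 7 of these had signal in Uhrf1-/-, against 9.25% of all genes at 0 in WT. Signal in more Uhrf1-/- libraries was seen for 13 of the 49, against 5.62% of all genes. For 6 it was in more WT libraries, against 8.03%. Signal in all 3 Uhrf1-/- and no WT library was seen for 0, against 0.132%. By limma 0 of 8 tested were called, with 1 at an unadjusted p under 0.05, and 0 with the block. Gtsf1, a piRNA pathway protein singled out after its values were seen, was at 0.188, 0.257 and 0 FPKM in WT and 1.82, 1.80 and 1.53 FPKM in Uhrf1-/-. It was called at the lower filter (log2 fold change 1.25, SE 0.19, limma adjusted p = 0.034). Besides Gtsf1, the Uhrf1-/- range lay above the WT range for Syce2, Dmc1, Hormad2, Dppa4 and Ldhc, a pattern of 3.1% of all genes. No range of these other germline genes lay below WT. Of 32 other Rhox and Xlr cluster genes, 26 were at 0 in WT LSK and 7 of these had signal in Uhrf1-/-, against 9.25% of all genes at 0 in WT. Apart from Rhox1, with 2 reads, these 7 were the copies Rhox2b to Rhox2f and Rhox2h. Since 91.1% of the exonic words of Rhox2a occur in its copies, their reads cannot be assigned with certainty. The 7 are therefore not separate observations. Xlr, at 3.06, 1.23 and 2.21 FPKM in WT and 7.59, 8.91 and 6.95 FPKM in Uhrf1-/-, had a log2 fold change of 1.51 (limma adjusted p = 0.089) and was called with the block (adjusted p = 0.00219). Of 30 genes of the silencing machinery, 29 were tested and Uhrf1 alone was called, lower, with and without the block.

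Germ cells were checked for, since they express most members. Of 10 primordial germ cell markers Sall4 was at 0 in all 7 libraries, Tfap2c had signal in WT replicate 1 only (0.0197 FPKM), and Prdm14 stood at 0.0445 and 0.263 FPKM in Uhrf1-/- replicates 1 and 3 and at 0 elsewhere. Pou5f1 stayed at or under 0.411 FPKM and Nanog ran from 0.0320 to 4.13 FPKM, the highest in LK. The list summed to 445 to 1248 FPKM in WT and 1296 to 2201 FPKM in Uhrf1-/-, nearly all of it Ifitm3 (387 to 1218 and 1265 to 2172 FPKM), which blood cells also express. Macrophage markers summed to 15.3 to 159 FPKM in WT and 14.3 to 51.4 FPKM in Uhrf1-/-, stromal markers to 2.06 to 3.64 and 2.35 to 2.99 FPKM, hepatoblast markers to 55.5 to 83.7 and 61.6 to 102 FPKM, endothelial markers to 29.3 to 42.8 and 27.6 to 32.5 FPKM, and erythroid markers to 24.1 to 195 and 85.6 to 101 FPKM. The sum of the germ cell list did not overlap between genotypes, and those of the other lists did. Within the other lists, Epor and Klf1, with the values given above, and Cdh5 and Krt18 lay above WT in every Uhrf1-/- library. Cxcl12 lay below WT in every one. Over all genes, 3.1% lay above WT in this way and 4.44% below. The part of other cells in the members' levels was not tested.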

How the data were processed

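Total RNA from 7 libraries was sequenced. The authors deposited 1 table with a scaled count (a signal that is not whole, scaled between libraries) and an FPKM value for each gene and library. Per the submitters' processing notes, mm10, TopHat2 2.0.9 and Cufflinks 2.1.1 were used, with no roles named. Groups come from the sample titles. FPKM as deposited was tested as log2(FPKM + 1) with limma 3.58.1 in R 4.3.3 (empirical Bayes with trend and robust, two-sided, Benjamini-Hochberg adjusted), over genes averaging 1 FPKM or more in the 6 LSK libraries; the LK library was left out of the fit. Fold changes on this scale understate the change of low genes. Estimated reads are deposited scaled counts divided by the most frequent low value of the library; 98.2% to 98.6% of low values were then whole within 0.02, and they served for description only. The floor covers counting error of the WT reads only, and the folds take the Uhrf1-/- reads as observed.

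The members, lists and tests were chosen with earlier results of these data known. Every value is given for members averaging 1 FPKM or more, those called in any planned fit, and those above 0 in all 3 libraries of 1 genotype without overlap; for other lists, genes called with or without the block (Uhrf1, Xlr, Gata1, Flt3 and Epor). Same-numbered WT and Uhrf1-/- libraries deviated together (correlations 0.351, 0.333 and 0.645, all above 0.1), so the numbers were read as pairs from the data, not from the labels; blocked values stand where they change a call. The alternatives were other filters, pseudocounts, scalings, the block and left-out libraries. The fits were tested on simulated data: both made more false calls than the threshold sets, the blocked fit more so. The blocked fit made no calls on data simulated with the raw variance of each gene and no pair effect. These settings were not varied apart. Blocked calls are thus less certain than their adjusted p reads. Gene positions and promoters are from RefSeq (GRCm38.p6); exons, shared words and overlaps are from GENCODE vM21 (GRCm38).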

Additional observations from a re-analysis of the deposited data

Results flagged for a closer look

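Slc25a31, a germ-cell ADP/ATP carrier of mitochondria, was at 0.178 FPKM (9 estimated reads) in the WT LK library and at 0 in all 6 LSK libraries. It drew attention because the LK library enters no comparison between genotypes. With 1 LK library there is no replicate check.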

How the results depend on the processing

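Of the 10608 genes tested, 18 were called. The block gave 219, with scaled counts 141, with median-of-ratios scaling 204 and with pseudocount 0.1 188. Scaled counts without the block gave 11, and no trend or robust step 9. Leaving out 1 library gave 0 to 4 calls: 0 without WT replicate 1 (1499 at an unadjusted p under 0.05) or WT replicate 2 (466). The block gave 656 without replicate pair 1, 21 without pair 2 and 201 without pair 3. With no filter the count was 0, also with the block, with median-of-ratios scaling (with or without the block), with the block and pseudocount 0.1, with no trend or robust step, without any 1 library (655 to 1943 at an unadjusted p under 0.05) and with the block without any 1 pair. Exceptions with no filter were pseudocount 0.1, with 2, scaled counts, with 18, and scaled counts with the block, with 146. The cause was not tested.

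The count of members called, 0 of 6, was 2 with the block, with the block and scaled counts, with the block and median-of-ratios scaling, and with the block without pair 1 or pair 3. It was 1 with the block and pseudocount 0.1 (Ddx4), and 1 at a mean of 0.1 FPKM. With no filter and scaled counts it was 2, and 4 with the block added. Leaving out 1 library gave 0. The count of members with signal in more Uhrf1-/- libraries, 12, ran from 8 to 13.

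Direction changed for members near 0. The log2 fold change of Ddx25 ran from -0.34 to 0.27 with 1 library left out, at 0.0 without Uhrf1-/- replicate 3, and was 0.24 with the block without pair 1. That of Xlr3a ran from -0.29 to 0.29 (-0.04 without Uhrf1-/- replicate 1), and with the block was -0.03 without pair 1 and -0.24 without pair 3. That of Xlr3b ran from -0.7 to 0.03. That of Xlr4a ran from -0.15 to 0.15 (0.03 and 0.05 without WT replicates 1 and 2), was 0.12 on scaled counts and 0.04 with median-of-ratios scaling, both the same with the block, and with the block 0.01 without pair 1 and 0.06 without pair 3. Rhox5 and Ddx4 kept their direction in every alternative run. Tuba3a, Tuba3b, Rhox2a, Tex19.1 and Hormad1 were at 0 in every WT LSK library, so no setting could have reversed theirs. Rhox5 passed the threshold in 5 of 20 alternatives (adjusted p 1.79e-10 to 0.786), Ddx4 in 6 of 20 (0.000141 to 0.773), Tuba3b in 3 of 18 (0.00429 to 0.909) and Tuba3a in 2 of 18 (0.00614 to 0.909), all by limma.

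The planned count test on recovered whole reads was not run, because whole reads could not be established for nearly all genes. The block combined with scaled counts, median-of-ratios scaling or pseudocount 0.1, the block without pair 1, and every setting with no filter other than no filter alone or with the block alone were chosen after seeing the data. Depth limits members at 1 to 3 reads, where 1 read decides whether a library shows signal.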
